A study of Mus musculus with 3 samples.

Results

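The genes described here are the 3 retinoic acid receptors (Rara, Rarb, Rarg), the 3 retinoid X receptors (Rxra, Rxrb, Rxrg), the COUP transcription factor genes Nr2f1 and Nr2f2, and the corepressor gene Nrip1. They were chosen by symbol, as probe sets that the platform annotation assigns to exactly 1 of these names, and 9 genes of the 19938 measured met that rule. Each of the 9 had 1 probe set, so no choice between probe sets was needed. Kidneys of C57BL/6 mouse embryos at embryonic day 11.5 were kept on Transwell filters for 48 h. One culture received serum-free DMEM with retinoic acid, the derivative of vitamin A that binds the receptors (called retinoic acid below), another received serum-free DMEM alone (serum-free), and another received DMEM with 10% fetal bovine serum (serum). Each medium gave RNA for 1 array (Affymetrix Mouse Gene 1.0 ST), so the 3 arrays give no replicate, no error and no test, and every value describes these arrays. The dose of retinoic acid and the number of kidneys behind each array are not stated in the labels.

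Retinoic acid receptors are nuclear receptors that bind DNA as a heterodimer with a retinoid X receptor. Without ligand the pair recruits corepressors, and on binding retinoic acid it exchanges them for coactivators and turns on target genes. The sites it binds are direct repeats of a short hexamer, and the spacing of the repeat decides which receptors can use it. In the embryonic kidney, retinoic acid made by cells around the ureteric bud acts through Rara and Rarb, and this signal is needed for Ret expression and branching in the bud. Rarb is a textbook target of its own ligand, through a retinoic acid response element beside its start site.

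That element is shown because Rarb had by far the largest differences among the 9 genes. The sequence below is the window from 250 bases before to 50 bases after a Rarb start site in RefSeq (GRCm38.p6, chr14:16575427-16575726, minus strand), written 5′ to 3′ along the gene, with the hexamers of the direct repeat in capitals.
Rarb: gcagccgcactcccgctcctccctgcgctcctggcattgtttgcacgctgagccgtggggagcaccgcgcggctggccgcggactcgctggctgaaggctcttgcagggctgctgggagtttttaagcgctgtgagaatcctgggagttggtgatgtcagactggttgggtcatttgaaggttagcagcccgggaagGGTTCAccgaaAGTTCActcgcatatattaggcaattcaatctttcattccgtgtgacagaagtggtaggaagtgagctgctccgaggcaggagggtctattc
The hexamer AGGTCA was searched together with its variant AGTTCA, its variant GGGTCA and its variant GGTTCA, on both strands, in direct repeats with 1, 2 or 5 bases between them (DR1, DR2 and DR5). The Rarb repeat is a DR5 at chr14:16575513-16575529, with its nearest base 37 bases before the start site. Among 18 windows of the 9 genes, 1 held a DR5, and 0 held a DR1 or a DR2. Single hexamers were found in 9 of the 18 windows and in 7 of the 9 genes, the exceptions being Rxrb and Nr2f2. Over all 32817 windows of the RefSeq promoter table, 0.0975% held a DR5, 0.222% a DR1, 0.268% a DR2 and 43.7% at least 1 hexamer. Counted by gene, 46.9% of 26994 had a window with at least 1 hexamer. The 9 genes have more windows per gene (18 for 9, against 32817 for 26994), which raises their share by gene. The shares by gene are therefore not directly comparable. A match describes letters in these windows, and enhancers or start sites outside them were not searched.

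Of the 31 genes with a DR5 in such a window, 11 were on the arrays and 6 had their higher value with or without retinoic acid at or above the level floor that is defined below. Their repeats are shown beside that of Rarb, with Cyp26a1 added because it encodes an enzyme that degrades retinoic acid. Each is written 5′ to 3′ along the strand that carries the repeat, with the hexamers in capitals.
Rarb: GGTTCAccgaaAGTTCA
Tnfsf13b: AGTTCAgatggAGTTCA
Syndig1: GGGTCAcccctAGTTCA
Prokr2: AGGTCAcaacgGGTTCA
Hbb-y: AGGTCAtgggaGGGTCA
Blvrb: AGTTCAaagccAGTTCA
Cyp26a1: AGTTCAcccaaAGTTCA
In GRCm38.p6 the repeat of Tnfsf13b lies at chr8:10006245-10006261, that of Syndig1 at chr2:149830616-149830632, that of Prokr2 at chr2:132385575-132385591, that of Hbb-y at chr7:103853324-103853340, that of Blvrb at chr7:27452399-27452415 and that of Cyp26a1 at chr19:37697776-37697792. Rarb and Tnfsf13b, the gene of a B cell survival cytokine, were both at least 2-fold higher with retinoic acid than in serum-free medium, as were 1.05% of all 10111 genes tested. Tnfsf13b stood at 9.65 with retinoic acid, 5.83 in serum-free medium and 7.90 in serum on the log2 scale. In the comparison of the first 2 media it reached the floor through the retinoic acid array alone, and its count among the 6 supports nothing. Rarb is the gene whose large differences led to this element being shown, so its count among the 6 supports nothing either. The other 4 genes differed by 0.48 (Syndig1), 0.12 (Prokr2), -0.08 (Hbb-y) and -0.16 (Blvrb). Prokr2, at 7.22 with retinoic acid and 7.10 in serum-free medium, also reached the floor in this comparison through the retinoic acid array alone. Cyp26a1 stayed below the floor, at 5.57 with retinoic acid, 4.42 in serum-free medium on the log2 scale.

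Deposited intensities ran from 3.84 to 17250, with array medians of 84.7 for retinoic acid, 85.5 for serum-free and 81.5 for serum. A level floor was set at the median over all gene values, which was 140 in intensity and 7.12 on the log2 scale. A gene counted as higher or lower when its 2 values lay at least 2-fold apart and the larger one reached the floor. Over all genes tested, 1.05% were higher and 0.613% lower with retinoic acid than in serum-free medium. The shares were 0.876% and 0.699% for serum-free medium against serum, and 1.04% and 0.816% for retinoic acid against serum. All 9 kidney markers (among them Six2, Pax2, Wt1, Ret and Foxd1) were at or above the floor on every array. Macrophage markers were at least 2-fold higher in serum-free medium than in serum for 7 of 8 genes. Of these, Mrc1 (6.32) and Fcgr1 (6.80) lay below the floor in serum and reached it there through the serum-free array alone. Summed intensities of the 8 were 4830 with retinoic acid, 6880 in serum-free medium and 2157 in serum. Ureteric bud markers summed to 8549, 5372 and 8736 in the same order. Of the 9, 2 were at least 2-fold higher and 0 lower with retinoic acid than in serum-free medium. These were Calb1 (3844, 848 and 3257) and Ret (969, 343 and 766), which carried the differences between the sums. Of the 8 markers that reached the floor in that comparison, 6 were higher and 2 lower by any size (Gata3 and Krt8), with a median of 0.16. Stroma markers summed to 13913, 12665 and 13411, with 1 of 8 at least 2-fold higher with retinoic acid than in serum-free medium (Tbx18). Smooth muscle markers summed to 1659, 3623 and 9839. Of the 6, 5 (Acta2, Tagln, Cnn1, Actg2 and Myl9) were at least 2-fold lower than in serum with retinoic acid as well as in serum-free medium. Cnn1 (5.77 and 6.79) and Actg2 (5.67 and 7.07) lay below the floor in these media, as did Tagln (6.52) with retinoic acid. There they reached the floor through the serum array alone, so the sizes are uncertain. Between retinoic acid and serum-free medium, 2 of 8 nephron progenitor markers were at least 2-fold lower (Cited1 and Meox2) and 1 higher (Meox1), and their sums were 7562, 11824 and 9819 on the 3 arrays. Of 7 sympathoadrenal and neuronal markers, 3 were lower (Dbh, Th and Chga) and 1 higher (Stmn2) in that comparison, and they summed to 3745, 3239 and 1981. Stmn2 alone made up 2867, 1137 and 864 of these sums. By any size, 5 of the 7 were lower and 2 higher with retinoic acid than in serum-free medium. Th, at 6.10 with retinoic acid, reached the floor in that comparison through the serum-free array alone. Endothelial markers summed to 7923, 9336 and 6639 with 0 of 9 past 2-fold in any comparison, and 0 of the 5 markers of gonad and adrenal cortex reached the floor. Xist, which marks female cells, stood at 9.79, 11.48 and 10.84 and the Y-linked Eif2s3y at 8.64, 7.46 and 8.38, so sex-specific transcripts differed between the media too. The part of any of these in the differences below was not tested, and all 9 genes lie on autosomes in the RefSeq table. In such bulk RNA, fewer cells of a type and less RNA per cell cannot be told apart.

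Of the 9 genes, 8 were at or above the floor on every array, and Rxrg was below it on every array. Rarb was the 1 gene of the 9 that was at least 2-fold higher with retinoic acid than in serum-free medium, where 1.05% of 10111 genes tested were higher by that size and 0.613% lower. Rarb was also the 1 gene of the 9 that was at least 2-fold lower in serum-free medium than in serum, where 0.699% of 10156 genes were lower and 0.876% higher. Against serum, 0 of the 9 differed 2-fold with retinoic acid, beside 1.04% of 10169 genes higher and 0.816% lower, although Rarb came close. Over all 9 the median difference was 0.03 between retinoic acid and serum-free medium, -0.03 between serum-free medium and serum, and 0.00 between retinoic acid and serum. Over all 19938 measured genes these medians were 0.00, 0.00 and 0.00. For the 8 of them that reached the floor the medians were 0.18, -0.05 and 0.09, beside 0.00, 0.00 and -0.01 over all genes tested. The 9 genes fall into 1 gene with large differences, a few with intermediate values, and a group whose values were nearly or exactly equal across the media.

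**Figure D1:**
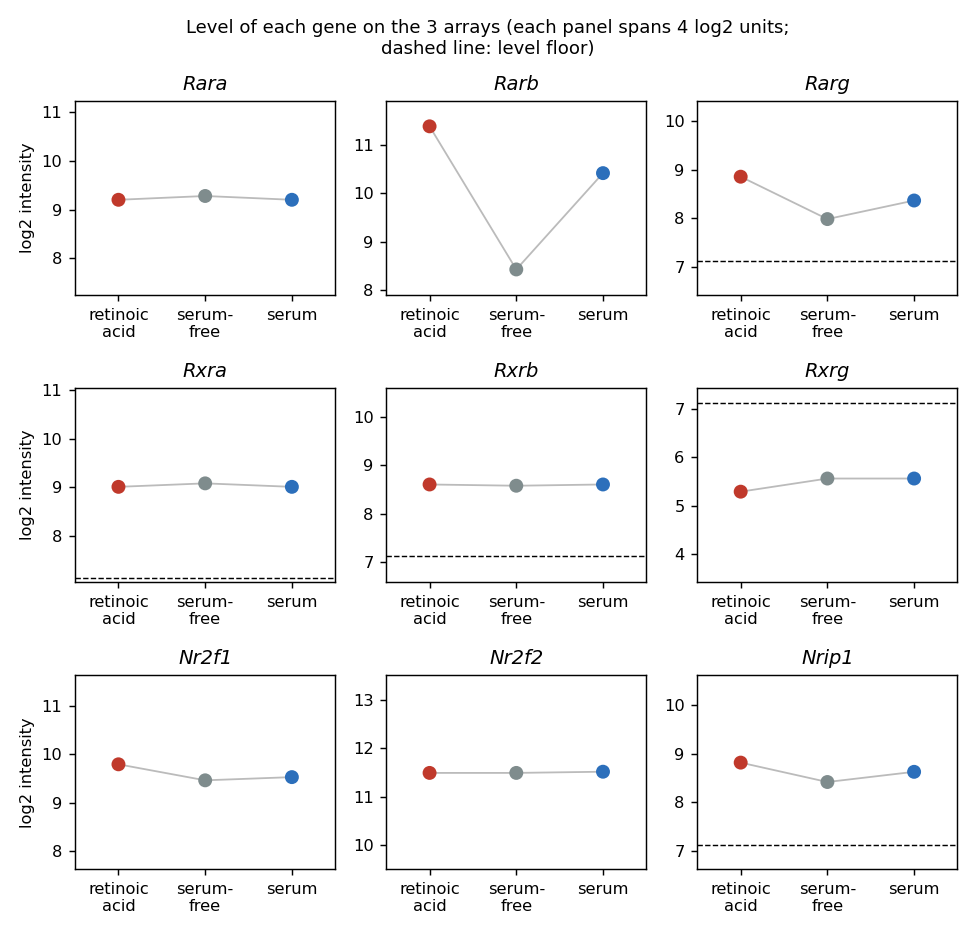
Level of each of the 9 genes (log2 intensity, y axis) on the retinoic acid, serum-free and serum arrays (x axis), 1 point per array. Every panel spans 4 log2 units, and the dashed line is the level floor of 7.12 where it falls inside the panel. Rarb and Rarg are lowest in serum-free medium and highest with retinoic acid, and Rxrg lies below the floor throughout.

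Rarb had an intensity of 2655 with retinoic acid, 344 in serum-free medium and 1361 in serum, or 11.37, 8.43 and 10.41 on the log2 scale. The retinoic acid array was thus the highest, the serum-free array the lowest, and serum stood between them, nearer to retinoic acid on the log2 scale only. With retinoic acid Rarb was 7.72-fold higher than in serum-free medium (a log2 difference of 2.95), and only 6 of 10111 genes tested, Rarb included, were higher by at least as much. In serum-free medium it was 3.96-fold lower than in serum (-1.98), a decrease that 11 of 10156 genes reached, Rarb included. Against serum, retinoic acid gave a value 1.95-fold higher (0.96), just short of 2-fold, and under cyclic loess scaling this difference was 1.00 and counted as higher. The probe set carries 6 accessions in its annotation, and the positions of its probes were not checked. Isoforms that start at different promoters were not separated.

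Rarg encodes the receptor that in mouse embryos is prominent in cartilage precursors and skin. Its intensity was 462 with retinoic acid, 252 in serum-free medium and 329 in serum, so its 3 arrays stood in the same order as those of Rarb but over a narrower range. It was 1.83-fold higher with retinoic acid than in serum-free medium (0.87), a size that 1.32% of genes tested reached or passed. In serum-free medium its value was -0.38 relative to serum, and 4.93% of genes were as low or lower. Against serum the retinoic acid value differed by 0.49. No spread between replicates exists to set these against. The nearest yardstick is the disagreement between different probe sets of 1 gene, whose 95th percentile was 0.28 between retinoic acid and serum-free medium, 0.28 between serum-free medium and serum, and 0.33 between retinoic acid and serum. All 3 differences of Rarg were larger than that yardstick, which holds no variation between kidneys or arrays.

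Rara, the broadly expressed receptor of the family, gave nearly the same value in all media. Its intensity was 589 with retinoic acid, 622 in serum-free medium and 589 in serum. The retinoic acid and serum values were exactly equal, and the serum-free value was above both by 0.08 on the log2 scale. The median polish that condenses the probes of a probe set often returns equal values for a pair of arrays, which happened in 51.6% of all genes between retinoic acid and serum-free medium, in 45.4% between serum-free medium and serum, and in 46.5% between retinoic acid and serum. An exact 0 is therefore no measure of equal expression. Of the 27 differences of the 9 genes, 5 were exactly 0.

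The retinoid X receptors, which also pair with thyroid hormone, vitamin D and fatty acid receptors, had small differences. Rxra had intensities of 516 with retinoic acid, 542 in serum-free medium and 516 in serum, with the serum-free value higher by 0.07 on the log2 scale than either. Rxrb had 388, 381 and 388 in the same order, with a difference of 0.03 for retinoic acid against serum-free and -0.03 for serum-free against serum, the sign of which turned under cyclic loess (0.00). For both genes the retinoic acid and serum values were exactly equal. Rxrg, whose expression is known mainly from muscle and parts of the nervous system, had 39.2 with retinoic acid and 47.3 in both other media. Its differences cannot be read as changes, since all 3 values lie below the floor of 140.

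Nr2f1 and Nr2f2 encode orphan receptors that bind many of the same repeats and can oppose retinoic acid receptors, and Nr2f2 is known from mesenchyme and venous endothelium. Nr2f1 had an intensity of 887 with retinoic acid, 706 in serum-free medium and 739 in serum. The retinoic acid array was the high one, by 1.26-fold over serum-free (0.33) and by 1.20-fold over serum (0.26), while the other two differed by -0.07. A difference of that size or more upward was found in 4.37% of genes between these arrays of retinoic acid and serum-free medium. Nr2f2 had 2879 with retinoic acid, the identical value in serum-free medium, and 2929 in serum. Its difference from serum was -0.02 in both other media as deposited and became 0.01 under cyclic loess, so it has no settled direction. Stroma markers, given here because Nr2f2 is known from mesenchyme, had a median difference of 0.14 for retinoic acid against serum-free and -0.16 for serum-free against serum. Endothelial markers had medians of -0.28 and 0.49 in these comparisons, and their part in the values of Nr2f1 and Nr2f2 was not tested.

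Nrip1 encodes a corepressor that binds ligand-occupied nuclear receptors, and in human cell lines its own gene is induced by retinoic acid. Its intensity was 451 with retinoic acid, 342 in serum-free medium and 396 in serum, so that serum-free was lowest and retinoic acid highest. The difference was 0.40 (1.32-fold) for retinoic acid against serum-free, which 3.72% of genes reached or passed. Serum-free medium differed from serum by -0.21, and retinoic acid differed from serum by 0.19, both below the 95th percentile of the disagreement between probe sets. Rarb, Rarg, Nrip1 and Nr2f1 thus each had their highest value with retinoic acid and their lowest in serum-free medium, but only Rarb by 2-fold. The differences of Nr2f1 from serum (-0.07 for serum-free and 0.26 for retinoic acid) were also below that percentile. The place of serum in the order is therefore unsettled for Nrip1 and Nr2f1. The share of all genes with this order was not counted, so a pattern particular to these genes was not tested.

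**Figure D2:**
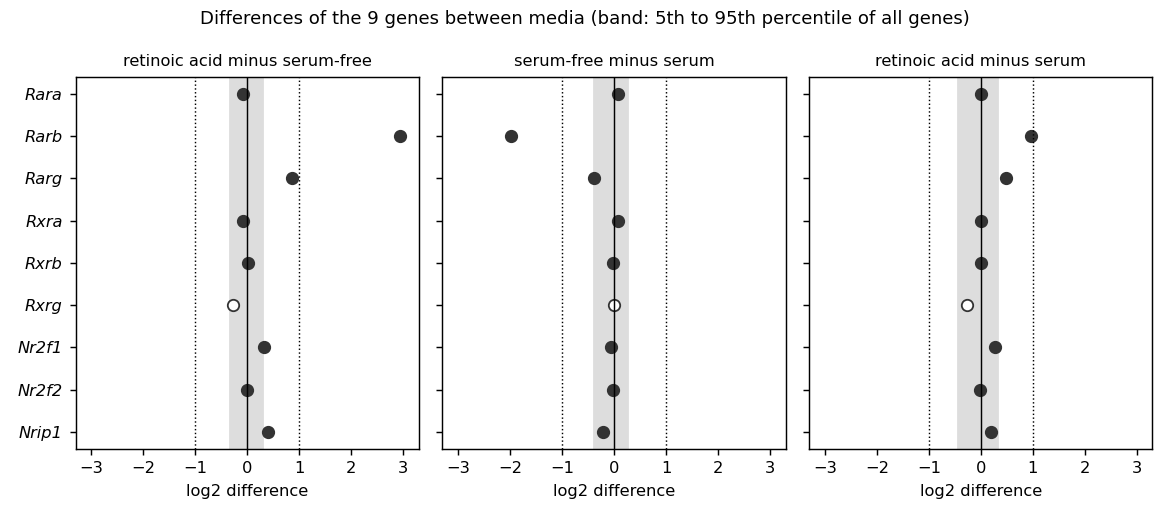
Log2 differences of the 9 genes (x axis) between retinoic acid and serum-free medium (left), serum-free medium and serum (middle), and retinoic acid and serum (right), 1 point per gene. Grey bands run from the 5th to the 95th percentile of all genes at or above the floor (from -0.33 to 0.30 in the left panel), dotted lines mark 2-fold, and the open circle is Rxrg, below the floor on every array. Rarb is the 1 point outside the dotted lines, at 2.95 on the left and -1.98 in the middle.

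Set beside the rest of the nuclear receptor family, Rarb and Rarg had the largest 2 differences between retinoic acid and serum-free medium among genes at or above the floor. Of 44 nuclear receptor genes measured, 20 were at or above the floor for this comparison and 24 reached it on no array. Rarb was the 1 receptor gene past 2-fold. After Rarb and Rarg came Nr4a1, an orphan receptor known as an early response gene, at -0.83 (6.87 with retinoic acid against 7.70 in serum-free medium), and Pparg, the receptor of fat cell differentiation, at 0.49 (8.18 against 7.70). Thra, a thyroid hormone receptor gene, differed by 0.14, and Nr3c1, the glucocorticoid receptor gene, and Nr2f6, a relative of the COUP factors, by -0.20 and -0.19. In serum-free medium against serum Pparg differed by -0.42, Nr4a2 by -0.38 and Nr1d2, a clock repressor gene, by -0.30. With retinoic acid against serum the 1 receptor gene past 2-fold was Nr4a1, at -1.13, with an intensity of 117 against 256. The lower of these lies below the floor of 140, so the size is uncertain, and the count becomes 0 where both values must reach the floor.

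Coregulator genes gave smaller differences than Rarb and Rarg. Of 12 measured coactivator genes 0 were past 2-fold in any of the 3 comparisons, and the same held for 10 measured corepressor genes. Ncoa3, a coactivator of the steroid receptor coactivator family, had the largest value with retinoic acid against serum-free, at 0.74 (9.59 against 8.85), followed among coregulators by Nrip1. Ncoa1 of the same family differed by 0.26 and Crebbp, a histone acetyltransferase gene, by 0.24. Among corepressors Nsd1 differed by 0.26 and Gps2, a subunit of the corepressor complex, by -0.13. The corepressor list had a median of 0.00 for retinoic acid against serum-free and the coactivator list 0.06, beside 0.00 over all measured genes.

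**Figure D3:**
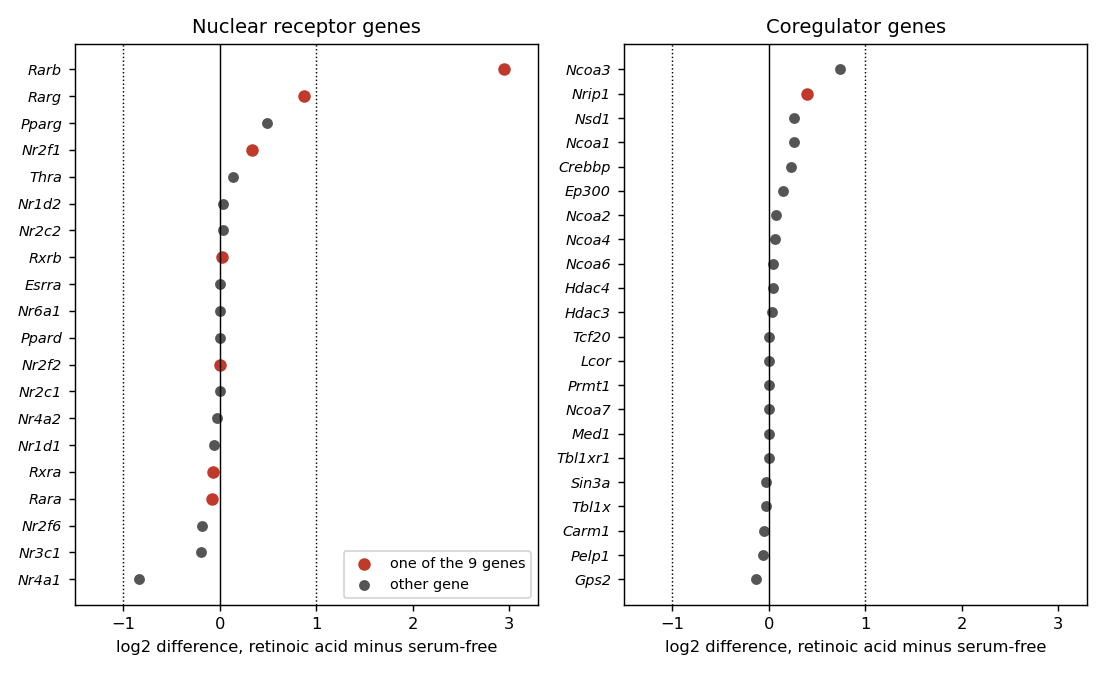
Log2 difference for retinoic acid against serum-free (x axis) of the 20 nuclear receptor genes and 22 coregulator genes at or above the floor, in order of size, with the genes described here in red and other genes in grey. Dotted lines mark 2-fold. Rarb stands at 2.95, Rarg at 0.87, and every other gene lies between -0.83 and 0.74.

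Genes that supply, bind or remove the receptors' ligand differed in both directions. Among genes of uptake and binding, Stra6, the membrane receptor for vitamin A, was at least 2-fold higher with retinoic acid than in serum-free medium (10.70 against 9.14). The binding protein genes Crabp1 and Fabp5 were at -0.88 and -0.77. Of 10 genes of synthesis, 1 was at least 2-fold higher and 0 lower, namely the alcohol dehydrogenase gene Adh1 (9.26 against 7.38). Aldh1a1 differed by 0.96 and Aldh1a2, which makes retinoic acid in the kidney stroma, by -0.95, and Aldh1a1 was at least 2-fold lower in serum-free medium than in serum (-1.08). Of 5 genes of breakdown and retinal reduction, 2 were at least 2-fold higher and 0 lower with retinoic acid. They were Cyp26b1, which degrades retinoic acid, at 10.25 against 6.60, and Dhrs3, which returns retinaldehyde to retinol, at 12.05 against 8.73. Dhrs4 differed by -0.01.

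A list of textbook retinoic acid targets, which holds no gene of the 9, had 18 measured genes. With retinoic acid against serum-free medium 6 were at least 2-fold higher and 0 lower, beside 1.05% and 0.613% of all 10111 genes tested. The median of the list was 0.38, beside 0.00 over all measured genes. Over the 14 whose higher value reached the floor it was 0.67, a step that keeps low genes with a high retinoic acid value. Besides Cyp26b1, Dhrs3 and Stra6 the 6 were Ret, the receptor of ureteric bud branching, at 9.92 against 8.42, the transglutaminase gene Tgm2 at 1.12 and Hoxa4 at 1.02. In serum-free medium against serum 2 of the list were at least 2-fold lower and 0 higher, beside 0.699% and 0.876% of all genes tested. These were Dhrs3 at -2.10 and Ret at -1.16. Against serum, retinoic acid gave 2 higher and 0 lower, beside 1.04% and 0.816% of all genes tested. The 2 were Cyp26b1 at 3.61 and Dhrs3 at 1.22. Cyp26b1 lay below the floor in serum-free medium (6.60) and in serum (6.63), so no difference between these media can be read from it. The comparisons share arrays, so their values for a gene are not independent of each other.

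The genes most like Rarb over the 3 arrays were found by the Euclidean distance from Rarb in 2 values, the difference between retinoic acid and serum-free medium and that between serum-free medium and serum, over 10005 named genes that reached the floor. The nearest was Dhrs3, at a distance of 0.39 log2 units. Tgm5, a transglutaminase gene, followed at 0.51, then Calb1, the calcium-binding protein calbindin of the ureteric bud, at 0.77, the casein gene Csn3 at 0.78, and Cyp7b1, an oxysterol hydroxylase gene, at 0.88. Calb1 stood at 11.91 with retinoic acid, 9.73 in serum-free medium and 11.67 in serum, and Cyp7b1 at 9.01, 6.92 and 8.74. Tgm5 stood at 8.24, 5.78 and 7.65, and Csn3 at 8.16, 5.54 and 6.82, so that the lower values of Tgm5, Csn3 and Cyp7b1 lie below the floor. Dhrs3 was the 1 gene of these 5 with larger differences than Rarb in both comparisons. With 3 arrays many genes can share an order of values, and the distances are a description only.

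**Figure D4:**
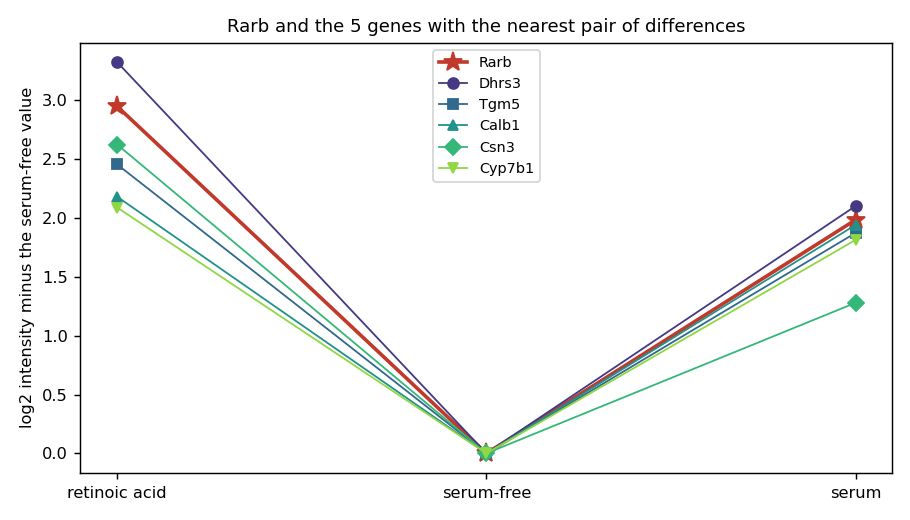
Rarb and the 5 genes nearest to it, as log2 intensity minus the gene's own serum-free value (y axis) on the retinoic acid, serum-free and serum arrays (x axis), 1 point per array. Serum-free is 0 by construction. Rarb reaches 2.95 with retinoic acid, and only Dhrs3 lies above it there.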

How the data were processed

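Total RNA of kidney explants (250 ng per array, per the labels' protocols) was hybridised to 1 array for each of 3 media. The deposited table holds a linear intensity for each probe set, made by the authors with Affymetrix Expression Console 1.1 and RMA, per the submitters' processing notes. The RMA settings were not recorded there. Columns were matched to samples by name and samples to media by label.

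Here log2 of the deposited intensity was taken with no pseudocount and no further scaling (Python 3.11.15, pandas 2.3.3). Of 35556 probe sets, 21789 carried exactly 1 symbol in the platform annotation, 1621 several and 12146 none. Where a gene had several probe sets (999 genes) the one with the highest mean was kept, which left 19938 genes. The identifiers of all 9 members matched RefSeq (GRCm38.p6), which served for names and promoter sequences. No coordinates go with the array values.

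Members, lists and rules were chosen with earlier results of these data known. Named were all 9 members, genes of each receptor, coregulator and retinoid list past 2-fold, a few per list with the largest differences (up to 3 per comparison), and the 5 genes nearest to each member past 2-fold. Genes with a DR5 were named after their values were seen. With 1 array per medium no p-value was computed. Other scalings were quantile and cyclic loess (limma 3.58.1, R 4.3.3). The number of arrays limits the precision.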

Additional observations from a re-analysis of the deposited data

How the results depend on the processing

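Adding 32 to the intensities, centring each array on its median, cyclic loess, quantile normalization and averaging probe sets were tried for every difference. Rarb stayed between 2.84 and 2.96 for retinoic acid against serum-free, between -2.05 and -1.89 for serum-free against serum, and between 0.91 and 1.00 for retinoic acid against serum. The last of these crossed 2-fold under cyclic loess, which gives 1 member past that size in place of 0. With 1.5-fold in place of 2-fold, 2 members passed for retinoic acid against serum-free (Rarb and Rarg), and 1 for retinoic acid against serum (Rarb). For the other 8 genes, 120 values under these settings moved by at most 0.12, less than the 95th percentile of the disagreement between probe sets of a gene (0.28 to 0.33), and 3 changed sign, all from differences of at most 0.03 in size. Averaging probe sets changes no member's value, since each has 1. Requiring both values at or above the floor lowered the counts over all genes from 106 to 62 higher and from 62 to 34 lower for retinoic acid against serum-free, and the member counts held. For serum-free against serum those counts became 51 in place of 89 higher and 41 in place of 71 lower, and for retinoic acid against serum 56 in place of 106 and 44 in place of 83. With 1.5-fold they were 244 higher and 196 lower, 204 and 210, and 250 and 289, in the same order of comparisons. Levels below the floor, those of Rxrg among them, may be limited by background signal, of which no measure was used here. No paired analysis was possible because each medium has 1 array.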
